A study of Mus musculus with 2 samples.

Results

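The 4 genes described here are Runx1, Runx2 and Runx3, which encode the DNA-binding subunits of core binding factor, and Cbfb, which encodes their common partner subunit. They were chosen by name from 43346 mouse genes with a row in the deposited tables. No measured value served as a criterion, though earlier results of these data were known. Total RNA came from limb tissue of healthy B6NCrl mouse embryos at 15.5 days, males and females pooled, with no treatment or mutant allele named in the labels. Replicate 1 pooled 78 embryos and replicate 2 pooled 62, and each library was made from 10 ng of RNA longer than 200 nucleotides. The design holds 1 group and no control or second condition, so no p-value is given and every difference is set against the spread between the 2 pools. The libraries held 35104685 and 41757268 estimated read counts. Markers of cartilage, bone, muscle and epidermis were all present, as limb tissue holds. In such bulk tissue, fewer cells of a type and less RNA per cell cannot be told apart.

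Runx proteins bind DNA through the Runt domain and act as activators or repressors according to the cofactors they recruit. Cbfb does not touch DNA itself but raises the affinity of the Runt domain for its site and protects Runx proteins from degradation. Runx2 is required for osteoblasts to form and for chondrocytes to become hypertrophic, Runx1 for the emergence of blood stem cells, and Runx3 for proprioceptive sensory neurons and for T cell subsets. Each Runx gene has a distal and a proximal promoter, and the transcripts of each start translation at a different exon.

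The start of the coding sequence tells the promoter classes apart. In the sequences below, read from the GENCODE M21 transcripts on GRCm38, capitals mark the bases that belong to 1 promoter class and lower case marks the first 14 bases of the exon both classes share.
Runx1-201, distal: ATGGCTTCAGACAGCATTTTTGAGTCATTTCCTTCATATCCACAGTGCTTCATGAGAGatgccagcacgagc
Runx2-202, distal: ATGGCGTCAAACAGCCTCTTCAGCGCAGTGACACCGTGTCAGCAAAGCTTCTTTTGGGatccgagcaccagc
Runx3-201, distal: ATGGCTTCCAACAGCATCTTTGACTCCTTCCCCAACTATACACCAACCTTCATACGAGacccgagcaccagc
Runx1-202, proximal: ATGCGTATCCCCGTAGatgccagcacgagc
Runx2-203, proximal: ATGCGTATTCCTGTAGatccgagcaccagc
Runx3-202, proximal: ATGCGTATTCCCGTAGacccgagcaccagc
The distal class has 58 coding bases of its own in each gene, at chr16:92825589-92825646 for Runx1, chr17:44814169-44814226 for Runx2 and chr4:135121106-135121163 for Runx3. The proximal class has 16, and they are nearly the same in the 3 genes. Runx1 and Runx2 shared 14 of the 16 proximal bases, and Runx3 shared 15 with each. The 58 distal bases were less alike, with 58.6% identity between Runx1 and Runx2, 70.7% between Runx1 and Runx3 and 56.9% between Runx2 and Runx3. Over the aligned coding sequences of the distal transcripts, identity was 72.1% for Runx1 and Runx2, 75.4% for Runx1 and Runx3 and 72.3% for Runx2 and Runx3. A coding exon of 157 bases that has the same length in all 3 genes was 77.1% identical between Runx1 and Runx2, 78.3% between Runx1 and Runx3 and 83.4% between Runx2 and Runx3. Another of 105 bases had the reverse order, with 81.9%, 78.1% and 77.1% for the same pairs.

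**Figure D1:**
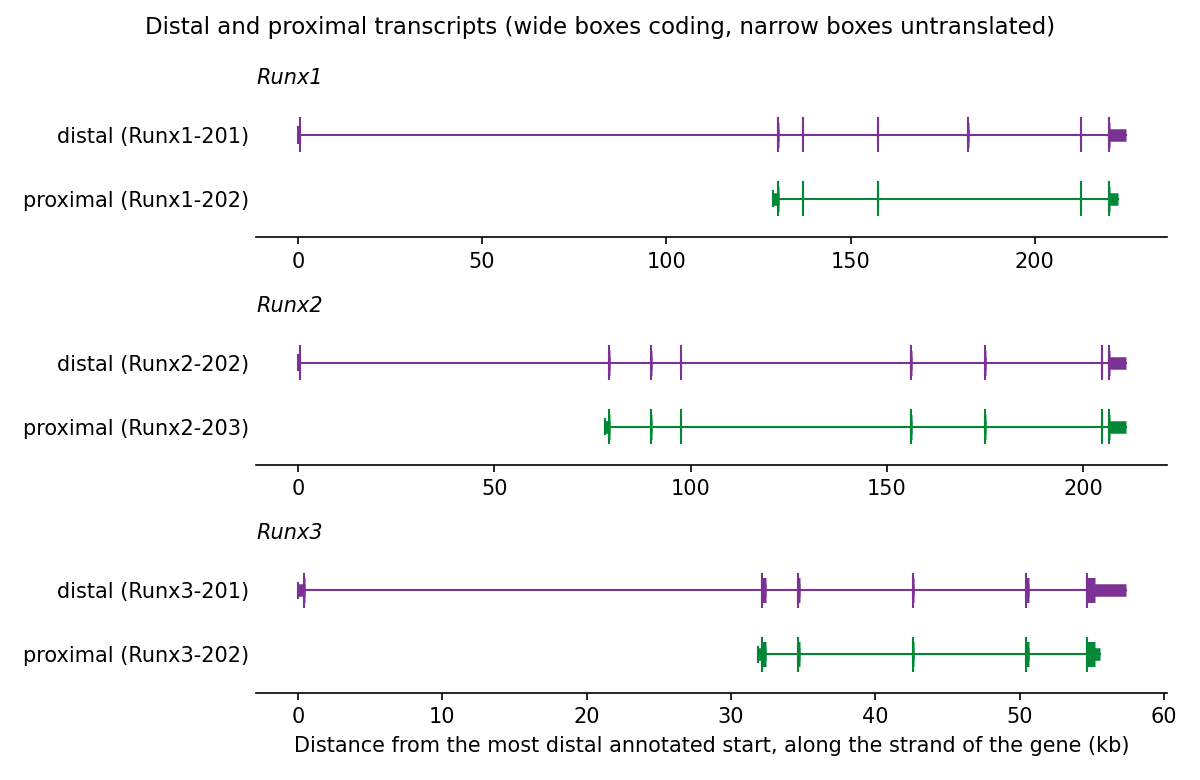
Exons of 1 distal and 1 proximal coding transcript of each Runx gene, drawn to scale against the distance in kb from the most distal annotated start, with a thin tick at the left edge of each exon so that short ones show. The proximal start lies 129 kb into Runx1, 78.1 kb into Runx2 and 31.8 kb into Runx3, and the exons after it are largely shared, except that Runx1-202 lacks 1 exon.

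The distal promoter windows of the 3 Runx genes hold the same short run of bases. The windows below are RefSeq windows on GRCm38.p6 from 250 bases before to 50 bases after the annotated start, and capitals mark matches to the Runx motif, searched as TGTGGT or TGCGGT on both strands, so that ACCACA is TGTGGT on the other strand.
Runx1 distal, chr16:92826025-92826324, minus strand: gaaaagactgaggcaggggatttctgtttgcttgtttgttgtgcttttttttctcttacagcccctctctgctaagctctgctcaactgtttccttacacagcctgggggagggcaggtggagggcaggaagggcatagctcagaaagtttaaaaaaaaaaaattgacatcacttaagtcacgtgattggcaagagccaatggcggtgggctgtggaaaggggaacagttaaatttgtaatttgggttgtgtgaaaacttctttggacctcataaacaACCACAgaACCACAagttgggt
Runx2 distal, chr17:44814578-44814877, minus strand: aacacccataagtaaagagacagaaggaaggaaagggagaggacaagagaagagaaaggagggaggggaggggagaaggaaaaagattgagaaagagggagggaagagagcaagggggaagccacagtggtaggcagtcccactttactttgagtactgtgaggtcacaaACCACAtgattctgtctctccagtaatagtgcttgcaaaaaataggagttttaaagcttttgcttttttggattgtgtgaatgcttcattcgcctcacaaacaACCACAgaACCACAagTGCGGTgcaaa
Runx3 distal, chr4:135120395-135120694, plus strand: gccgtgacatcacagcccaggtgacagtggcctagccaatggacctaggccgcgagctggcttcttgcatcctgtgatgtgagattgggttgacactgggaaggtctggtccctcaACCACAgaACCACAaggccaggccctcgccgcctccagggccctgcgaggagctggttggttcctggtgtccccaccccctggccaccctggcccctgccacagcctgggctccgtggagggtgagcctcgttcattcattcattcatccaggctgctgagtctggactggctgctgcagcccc
The run common to all 3 is 18 bases long and holds the motif as a tandem pair.
Common run: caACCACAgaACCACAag
Counted from the RefSeq start, its first base lies at 26 in Runx1, at 21 in Runx2 and, upstream, at -136 in Runx3. In Runx1 and Runx2 the identical stretch extends to 22 bases. Of 32851 RefSeq promoter windows, 4 held the 18 bases, namely these 3 and the window of Gm16225, which overlaps that of Runx3 and reads the same copy from the other strand. The motif pair with any 2 bases between, ACCACANNACCACA, stood in 7 windows, or 0.0213%. Runx1 had 2 motif matches in its distal window, Runx2 had 4 and Runx3 had 2. The windows of the proximal Runx1 and Runx3 starts and of Cbfb had none. The proximal Runx2 start had no window among those used, so its matches were not counted. At least 1 match was present in 22.4% of all windows and 3 or more in 0.289%. A match is a description of the letters, since binding was not measured.

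Cbfb was the most abundant member. Runx3 had the lowest mean, though its gap from Runx1 stayed within the spread between the pools. Levels are in TPM, a unit that corrects reads for transcript length and library size, so levels of different genes can be ordered. Cbfb (ENSMUSG00000031885.9, chr8:105170674-105217989, plus strand, mm10) stood at 65.6 TPM in replicate 1 and 73.6 in replicate 2 (mean 69.6 ± 5.62, SD, n = 2), from 3822 and 5282 counts. Runx2 (ENSMUSG00000039153.12, chr17:44495987-44814797, minus strand) stood at 14.9 and 10.7 TPM (12.8 ± 2.98, SD, n = 2), from 1013 and 1137 counts. Both genes were above 10 TPM in each library, as were 21.3% of all genes.

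Runx1 and Runx3 were lower. Runx1 (ENSMUSG00000022952.12, chr16:92601466-92826149, minus strand) stood at 6.22 and 4.76 TPM (5.49 ± 1.03, SD, n = 2), from 577 and 617 counts. Runx3 (ENSMUSG00000070691.6, chr4:135120652-135177990, plus strand) stood at 3.68 and 3.82 TPM (3.75 ± 0.0990, SD, n = 2), from 311 and 394 counts. All 4 members thus passed 1 TPM in both libraries, where 34.6% of all genes did. Among the 15007 genes past that level, Cbfb had a mean at percentile 83.4, Runx2 at 42.7, Runx1 at 24.8 and Runx3 at 17.8.

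**Figure D2:**
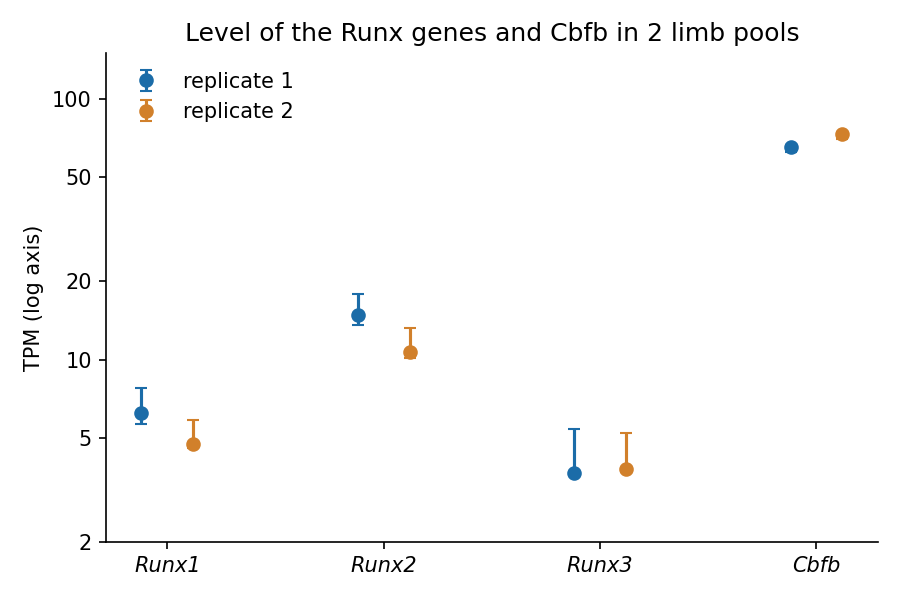
TPM of each member on a log axis in replicate 1 (78 embryos) and replicate 2 (62 embryos), with the deposited interval of each value as bars. Cbfb lies at 65.6 and 73.6 TPM, above the Runx genes, and the intervals of Runx1 and Runx3 overlap in replicate 2.

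The ratios between members were compared with the pool spread of genes of like level: the yardstick is the log2 gap that 95% of such genes stay within between the pools. Runx2 was 2.29-fold above Runx1 (log2 ratio 1.20 ± 0.07, SD, n = 2), beyond the yardstick of 0.96 in both libraries. It was 3.30-fold above Runx3 (log2 1.72 ± 0.37, SD, n = 2), beyond the yardstick of 1.10 in both. Runx1 over Runx3 had a log2 ratio of 0.53 ± 0.31 (SD, n = 2), within 1.10, so the order of these neighbours does not exceed the spread. Counted as reads without division by length, the log2 ratio of Runx2 over Runx1 was 0.81 in replicate 1 and 0.88 in replicate 2 (mean 0.84). Both lay below the yardstick of 0.96, which was taken in TPM. They lay above the yardstick of Runx1 taken in reads without division by length, 0.80, by a small margin in replicate 1.

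The partner subunit exceeded the sum of the DNA-binding subunits. The 3 Runx genes summed to 24.8 TPM in replicate 1 and 19.2 in replicate 2. Cbfb lay 2.64-fold and 3.81-fold above these sums (log2 1.67 ± 0.37, SD, n = 2), beyond the yardstick of 1.10 in both libraries. In reads not divided by length the log2 ratio was 1.01 in replicate 1 and 1.30 in replicate 2 (mean 1.15). Replicate 1 was below and replicate 2 above the yardstick of 1.10, which was taken in TPM. Both were above the widest yardstick of the members taken in such reads, 0.90 for Runx3. These are RNA levels, and protein was not measured.

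None of the 4 members differed between the pools by more than genes of like level do. After centring on the median gene, the log2 of replicate 2 over replicate 1 was -0.36 for Runx1 against a yardstick of 0.96, and -0.45 for Runx2 against 0.56. It was 0.08 for Runx3 against 1.10 and 0.19 for Cbfb against 0.34. Of 15571 genes with a mean of at least 1 TPM, 5.01% passed the yardstick and 3.63% were over 2-fold apart, where 0 of the 4 members were. In CPM, where 5.02% of genes passed, 0 of the 4 members did either.

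The pool gap of Runx2 was smaller before division by length. In CPM, counts scaled to the library total but not divided by length, Runx2 stood at 28.8 in replicate 1 and 27.2 in replicate 2, a centred log2 difference of -0.10. Its effective length, the mean over its transcripts weighted by their level, was 3052 bases in replicate 1 and 3912 in replicate 2, a 1.28-fold gap. An effective length over 1.2-fold apart was found for 2.68% of genes. For Runx1 the effective lengths were 4160 and 4752 bases, and the centred CPM difference was -0.17. Runx3 had 3785 bases in both libraries and Cbfb had 2610 and 2633, so for these the scales gave nearly the same difference.

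**Figure D3:**
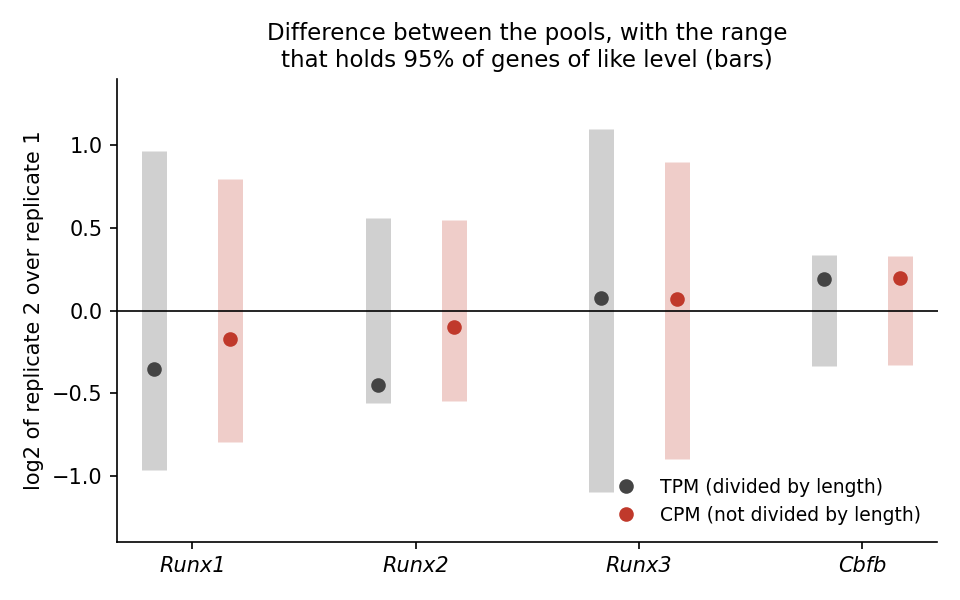
Centred log2 of replicate 2 over replicate 1 for each member in TPM and in CPM, with bars for the range that holds 95% of genes of like level. All 8 points lie inside their bars, and the Runx2 point moves from -0.45 in TPM to -0.10 in CPM.

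Runx1 RNA was assigned mainly to the proximal promoter. Promoter classes were set by the widest gap between the 5′ ends of coding transcripts. Transcripts of the distal class summed to 1.71 TPM in replicate 1 and 1.26 in replicate 2, or 27.4% and 26.5% of the gene (27.0 ± 0.652%, SD, n = 2). The proximal class summed to 4.52 and 3.49 TPM. In both libraries the proximal class was the higher. The leading transcript was Runx1-202 of 387 codons, at 2.80 and 2.92 TPM, which starts at the proximal promoter and lacks a 192-base coding exon. Runx1-201 of 465 codons, the full-length distal form, stood at 1.59 and 1.20 TPM. Runx1-203 of 451 codons, a proximal form with that exon, was at 0.63 TPM in replicate 1 and listed at 0 in replicate 2. Of the Runx1 transcripts that span this exon, 55.8% and 70.9% by TPM skipped it (63.3 ± 10.7%, SD, n = 2).

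Runx2 RNA was split between both promoters. The distal class summed to 7.09 TPM in replicate 1 and 6.24 in replicate 2, or 47.7% and 58.6% (53.1 ± 7.72%, SD, n = 2). The proximal class summed to 7.78 and 4.41 TPM, so on this scale it was the higher in replicate 1 and the lower in replicate 2. In expected counts the distal class led in both libraries, at 54.6% and 57.9%. The distal Runx2-202 of 528 codons stood at 3.22 and 3.51 TPM and the proximal Runx2-203 of 514 codons at 2.29 and 2.25. These full-length forms, which carry the coding starts printed above, were close between the pools. The widest gap of any Runx2 transcript was that of Runx2-209, a 693-base model on the proximal side with an incomplete annotated start, at 3.50 TPM in replicate 1 and 1.24 in replicate 2, from 46.3 and 20 counts. Its deposited intervals were wide, from 0.133 to 4.36 TPM and from 2.06e-05 to 1.80 TPM. Without transcripts of incomplete start the distal share was 65.2% and 66.3% (65.7 ± 0.811%, SD, n = 2). The gap in share between the pools was then small. Those left out that had any TPM were all on the proximal side, so leaving them out could only raise the distal share. The distal lead on this setting is therefore no separate support for a distal lead. Without these transcripts the centred log2 difference of the gene between the pools was -0.18.

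Apart from Runx2-209, the other Runx2 forms each lay below Runx2-203 in both libraries. Runx2-204, a distal form that also encodes 528 codons, stood at 1.96 and 1.30 TPM. Its deposited interval overlapped that of Runx2-203 in both libraries. Runx2-208, a retained intron, stood at 1.20 and 1.26 TPM, and Runx2-212, annotated as a target of nonsense-mediated decay, at 1.27 and 0.92. A 174-base coding exon was skipped in 38.5% and 23.0% of the transcripts that span it, by TPM (30.7 ± 10.9%, SD, n = 2). The skipping transcripts summed to 5.26 and 2.16 TPM, and most of this was Runx2-209 at 3.50 and 1.24, with its wide intervals. The rest was Runx2-212 and, in replicate 1, Runx2-205, a 440-base model of incomplete start. Of the 13 annotated Runx2 transcripts, 7 had a value above 0 in both libraries.

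All Runx3 RNA was assigned to the distal promoter. Runx3-201 of 423 codons carried the whole 3.68 and 3.82 TPM. The 5 proximal transcripts, among them Runx3-202 of 409 codons, were listed at 0 counts in both libraries. A limit of 3 counts corresponds to 0.0766 and 0.0627 TPM for Runx3-202. For the 4 short noncoding ones it is looser, up to 1.05 and 0.860 TPM for Runx3-204, so low levels of these were not detectable at this depth. The limits cover counting error only. The proximal classes of Runx1 and Runx2 were above 0 in both libraries. In the deposited posterior means of TPM, a second estimate in the same tables, the distal share of Runx3 averaged 82.4%. In that estimate Runx3-202 had only 0.04 and 0.03 TPM. The rest of the proximal share lay in the 4 short noncoding transcripts, which were listed at 0 counts.

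**Figure D4:**
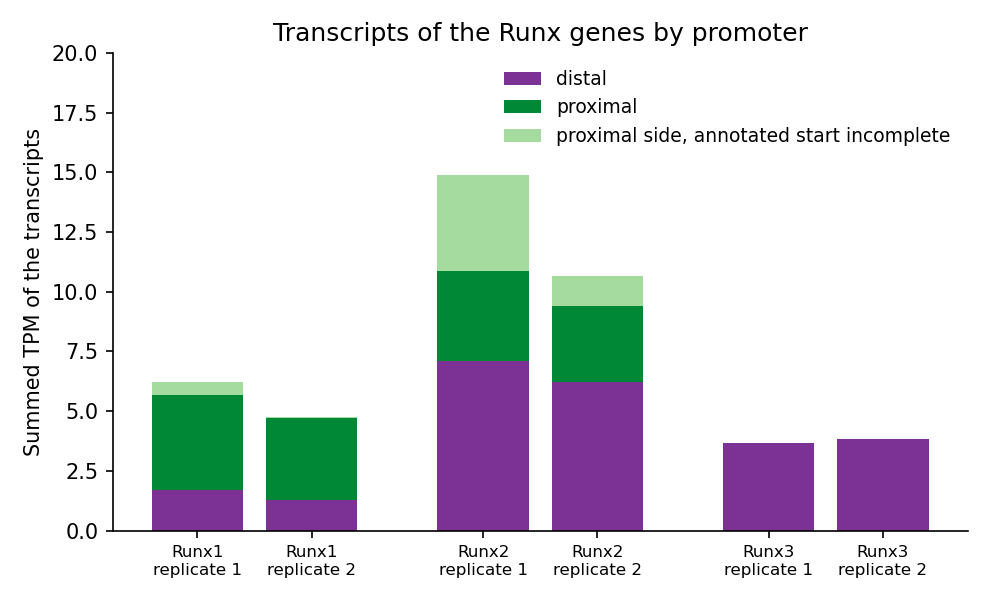
Summed TPM of the transcripts of each Runx gene by promoter in each library, with transcripts of incomplete annotated start on the proximal side in the lighter colour. Runx1 is mainly proximal, Runx2 is split, and Runx3 is distal only, with 3.68 and 3.82 TPM.

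Cbfb RNA was spread over 4 coding forms. Cbfb-202 of 182 codons led with 36.1 TPM in replicate 1 and 42.3 in replicate 2. Cbfb-203 of 148 codons followed at 20.7 and 18.7 TPM. Cbfb-201 of 187 codons stood at 4.83 and 8.99 TPM and Cbfb-204 of 155 codons at 3.68 and 3.09. The order of the leading pair was the same in both libraries.

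The forms differ by the choice of splice donor and by a skipped exon. Cbfb-202 uses a donor 31 bases further on than Cbfb-201, and these bases, in capitals below with 20 bases on each side, change the reading frame at the end of the protein.
Cbfb-202: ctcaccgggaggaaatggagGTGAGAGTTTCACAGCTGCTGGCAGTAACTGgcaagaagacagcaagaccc
Cbfb-201: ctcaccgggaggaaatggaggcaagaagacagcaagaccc
The longer exon, chr8:105202452-105202578, was used in 58.6% and 60.5% of the RNA that holds this exon (59.5 ± 1.30%, SD, n = 2). The shorter one made up 41.4% and 39.5%, and both libraries were close. Cbfb-203 lacks the 117-base exon at chr8:105178593-105178709, shown in capitals with 15 bases on each side and then as the junction without it.
Exon kept, Cbfb-201: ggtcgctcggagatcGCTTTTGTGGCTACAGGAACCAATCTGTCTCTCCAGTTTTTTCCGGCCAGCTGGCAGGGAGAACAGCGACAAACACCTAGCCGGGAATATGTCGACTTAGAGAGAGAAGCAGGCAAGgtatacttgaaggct
Exon skipped, Cbfb-203: ggtcgctcggagatcgtatacttgaaggct
This exon codes for part of the region that binds the Runt domain. Of the Cbfb transcripts that span it, 31.6% by TPM skipped it in replicate 1 and 25.5% in replicate 2 (28.5 ± 4.27%, SD, n = 2). Cbfb-204, which lacks the 96-base exon, made up 5.64% and 4.23% of the transcripts that span that exon.

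**Figure D5:**
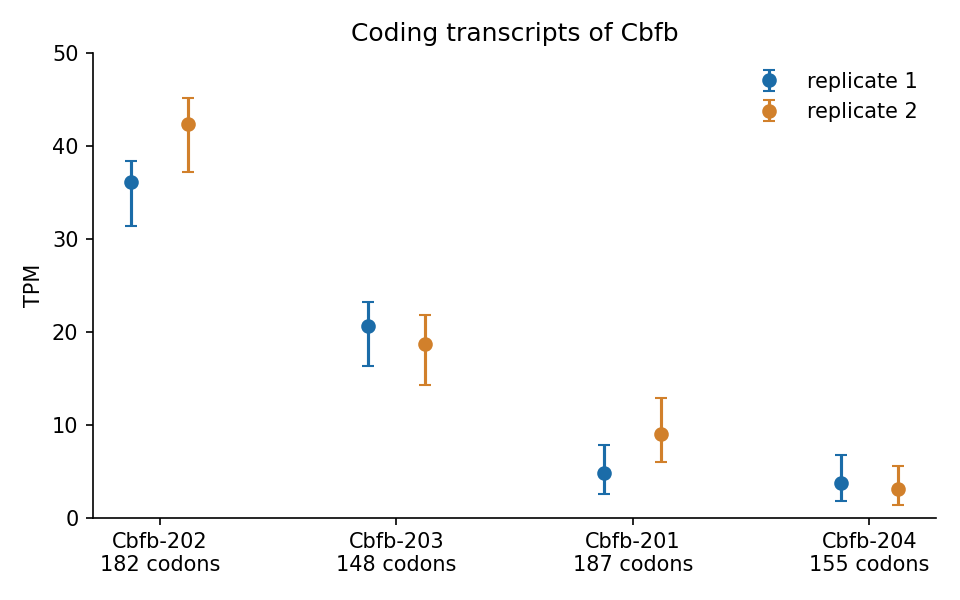
TPM of the 4 coding transcripts of Cbfb in each library, with the deposited interval of each value as bars and the codon number under each name. Cbfb-202 lies at 36.1 and 42.3 TPM, above Cbfb-203 at 20.7 and 18.7 TPM in both libraries.

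Several other genes overlap the members, and whether the libraries keep strand is not given in the sources used here. Supt3, a subunit of the SAGA complex, runs across the distal part of Runx2 on the other strand at 16.3 and 15.5 TPM, with no exon base shared with Runx2. Runx2os1, antisense to Runx2, shares 519 exon bases with it and stood at 2.16 and 1.54 TPM. Reads from these bases cannot be told apart without strand, so part of the Runx2 level may be counted for Runx2os1 or the reverse. Runx2os1 lies across the proximal Runx2 start, so the promoter shares of Runx2 carry the same limit. Runx2os2 stood at 1.12 and 1.17 TPM and Runx2os3 was listed at 0. Gm26626, antisense in Runx1, had 0 and 2 counts, and Gm16225, beside the distal Runx3 start, had 2 and 0.

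Cofactors of Runx proteins were widely present. Of 14 corepressors, all 14 passed 1 TPM in both libraries, where 34.6% of all genes did. The yardstick was passed by 0 of the 14, beside 5.01% of genes with a mean of at least 1 TPM. Cbfa2t2, Cbfa2t3 and Runx1t1, the ETO family of corepressors, stood at 31.8 and 33.8 TPM, 5.34 and 4.44 TPM, and 18.7 and 19.6 TPM. Aes, a short Groucho-family protein, was the highest at 361 and 351 TPM. Of 15 coactivators and partner factors, 14 had a row, and all 14 passed 1 TPM and 0 passed the yardstick, beside the same shares of genes. Ep300, a histone acetyltransferase that Runx2 recruits, stood at 10.8 and 11.7 TPM.

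Signals that raise Runx2 and factors that hold it back were present as well. All 8 of the inducers passed 1 TPM in both libraries, where 34.6% of all genes did. The yardstick was passed by 0 of the 8, beside 5.01% of genes with a mean of at least 1 TPM. Among the inducers Dlx5, a homeodomain activator of Runx2, led at 45.1 and 38.7 TPM. All 15 of the inhibitors passed 1 TPM and 1 passed the yardstick, Twist1 at 23.8 and 36.2 TPM, beside the same shares of genes. Twist2, which binds the Runt domain, stood at 56.0 and 58.6 TPM. Sox9, the chondrocyte factor that restrains Runx2, stood at 61.8 and 63.4 TPM, 4.94-fold above Runx2 (log2 of Runx2 over Sox9 -2.30 ± 0.36, SD, n = 2), beyond the yardstick of 0.56 in both libraries. Sp7, the osteoblast factor downstream of Runx2, stood at 15.1 and 10.3 TPM. The log2 ratio of Runx2 over Sp7 was 0.02 ± 0.05 (SD, n = 2), within the yardstick of 0.56 in both libraries.

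Bone genes that Runx2 is known to activate lay toward replicate 1. Of 14 osteoblast genes, 11 passed 1 TPM in both libraries, and of the 12 with a mean of at least 1 TPM, 11 were higher in replicate 1, as were 50% of all genes tested. Their median log2 difference was -0.56, where that of all 15571 genes was 0, and 5 of the 12 passed the yardstick toward replicate 1, against 3.34% of genes. Ibsp, bone sialoprotein, stood at 388 TPM in replicate 1 and 226 in replicate 2. The others past it were Alpl, Spp1, Dmp1 and Ifitm5, while Runx2 itself, at -0.45 in TPM and -0.10 in CPM, was not. Of 8 genes of hypertrophic cartilage, where Runx2 also acts, 5 were higher in replicate 2 and 3 in replicate 1. Col10a1, at 29.4 and 37.2 TPM, and Ihh, at 4.04 and 6.76, lay toward replicate 2 within the yardstick. Of the 8, 3 passed the yardstick in different directions, beside 5.01% of genes. Mmp13, a collagenase, stood at 28.1 and 11.8 TPM, Mef2c at 64.1 and 47.0, and Pth1r, the receptor for parathyroid hormone and its related protein, at 67.2 and 88.7.

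Markers of other tissues moved between the pools beside these values. For the counts below, 3.34% of genes with a mean of at least 1 TPM passed the yardstick toward replicate 1. In either direction 5.01% of these genes passed it, and 50% were higher in replicate 1 by any amount. All 6 muscle markers passed the yardstick toward replicate 1, with a median log2 difference of -1.55 and a summed level of 4335 and 1224 TPM. Of 7 osteoclast markers, 4 had a mean of at least 1 TPM and 3 of these passed the yardstick, all toward replicate 1, with a summed level over the 7 of 214 and 127 TPM. All 6 endothelial markers were higher in replicate 1, with a median log2 difference of -0.19, but 0 passed the yardstick. Pf4, a platelet gene of the megakaryocyte list, passed it toward replicate 1, at -0.31 against 0.30. Of 8 cartilage markers, 0 passed it, and their sum was 1308 and 1352 TPM. The part of these tissues in the values of Runx1 and Runx2 was not tested.

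Cell types in which Runx1 and Runx3 are known to act differed in how strongly their markers were seen. Of 10 macrophage markers all 10 passed 1 TPM in both libraries, where 34.6% of all genes did, and of 7 mast cell markers 6 did. Of 6 megakaryocyte markers 3 passed, with Pf4 at 83.8 and 66.4 TPM. Of 11 markers of T cells, natural killer cells and Langerhans cells 0 passed, and Ncr1 and Cd207 were listed at 0. Of 9 sensory neuron markers 2 passed, namely Ntrk3, the receptor of proprioceptive neurons, at 2.60 and 1.85 TPM, and Calca at 6.26 and 6.11. Of 8 markers of epidermis and hair follicle 7 passed, and all 6 endothelial markers passed. Which of these cells held the Runx1 and Runx3 RNA was not measured.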

How the data were processed

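RNA from 2 pools of embryonic limbs was measured, and each library has a deposited gene table and transcript table on mm10 with GENCODE M4 models. Expected counts, TPM, FPKM and the percent of each transcript in its gene were deposited by the authors, per the file headers, with the aligner and counter not given in the sources used here. The deposited TPM is scaled over every row, spike-ins included. Symbols and coordinates came from GENCODE M21 by identifier without version, and 42462 of 43346 mouse genes matched. Of 33 member transcripts, 31 had the same length in M21. Pool differences were log2(TPM + 0.1), centred on the median of genes with a mean of at least 1 TPM. The yardstick was taken in 20 bins of mean TPM. Expected counts were summed to 35104685 and 41757268 per library, so Runx3 at 311 counts is the least precise member. Ends of coding transcripts within 2 kb of the first start after the widest gap were called proximal. No significance test was run, since there is 1 group. Whether the pools are independent dissections is not stated. Scaling alternatives used edgeR 4.0.16 and DESeq2 1.42.0 on rounded counts, and scripts ran in Python 3.11.15 and were tested on simulated data. The members and the 17 gene lists were chosen with earlier results of these data known. Named genes are the members, genes whose symbol starts with Runx or Cbf, genes of the 6 ratios, lists of up to 8 genes, and the 3 highest and 2 lowest of longer lists. Twist1, Alpl, Spp1, Dmp1, Ifitm5 and the genes that overlap the members, were named after their values were seen. Without a protein table, no protein sequence was used here.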

Additional observations from a re-analysis of the deposited data

How the results depend on the processing

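No paired analysis was possible because the study has 1 group. The direction and side of the yardstick held in all 46 alternative values of the pool differences, over pseudocounts, filters, bins, TMM, DESeq2 and spike-in scaling, posterior mean TPM and, chosen after seeing the data, CPM with its own yardstick and no transcripts of incomplete start. Levels in CPM were 15.6 for Runx1, 28.0 for Runx2, 9.15 for Runx3 and 118 for Cbfb, which are on another scale because length is not divided out. Runx3 moved by more than its small spread to 4.45 TPM as posterior mean, 3.95 from FPKM, 3.96 over mouse genes alone and 4.22 without mitochondrial and Rn7s genes, and Cbfb to 78.3 TPM in the last. Counts not divided by length gave log2 ratios of 0.84 for Runx2 over Runx1 and 1.15 for Cbfb over the Runx sum. Against the TPM yardsticks the first no longer passed, and the second passed in replicate 2 but not in replicate 1. Against the widest CPM yardstick of the genes in each ratio, 0.80 and 0.90, both passed in both libraries. Leaving out each library in turn gave -0.021 to 0.055 for Runx2 over Sp7, which reverses its sign. The distal share of Runx1 was 29.4% as posterior mean, 33.9% in expected counts and 28.4% without incomplete starts, the last chosen after seeing the data. That of Runx2 was 65.7% without incomplete starts, a setting that in both genes took TPM from the proximal class only. That of Runx3 was 82.4% as posterior mean, with most of the remainder in short noncoding transcripts listed at 0 counts. The list median turned to -0.022 as a mean for hypertrophic cartilage, and for mast cells to -0.036 as a mean and -0.0075 with no filter. Beyond the scale change in CPM, the cause was not tested. Depth limits Runx3 and the minor transcripts most.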

Other observations

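Promoter windows of the listed genes held the Runx motif at varied shares, with no test. At least 1 match to TGTGGT or TGCGGT stood in 4 of 13 windows of osteoblast genes, 3 of 12 of hypertrophic cartilage genes, 5 of 7 of mast cell genes and 6 of 12 of T cell, natural killer and Langerhans cell genes, beside 22.4% of all windows. Also above that share were inducers at 1 of 3 windows, inhibitors at 3 of 11, macrophage at 2 of 7 and cartilage at 3 of 13. Megakaryocyte and muscle, at 1 of 4 each, were above it too. Below it were coactivators at 0 of 15, epidermis and hair follicle at 0 of 9, and osteoclast and endothelium at 0 of 6 each. Corepressors at 2 of 17 and sensory neurons at 1 of 8 were below it as well. The tandem ACCACANNACCACA stood in 3 windows outside the Runx genes and Gm16225, those of Gm12236, Gm15462 and Olfr24, and none of these held the 18-base run of the distal Runx windows. Cbfa2t2-ps1, a processed pseudogene of the corepressor Cbfa2t2, was at 0.64 TPM in replicate 1 and 0 in replicate 2.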
